A study of Mus musculus with 1 sample.

Results

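Amylases and carboxypeptidases were followed in the pancreas of suckling mice. The genes were 9 named by symbol, the amylases Amy1, Amy2b, Amy2a1, Amy2a2, Amy2a3, Amy2a4 and Amy2a5 and the carboxypeptidases Cpa1 and Cpb1. The deposited table listed 8 of these 9 among its 32285 genes, and Amy2b had no row. The study asked how loss of Scap, a sterol sensor that escorts SREBP transcription factors, altered pancreatic cells. The library analysed here came from Scap f/f mice, which carry the conditional Scap allele without a Cre and were titled wildtype, at 2 weeks of age. Pancreata of 5 to 6 mice, males and females in equal number, were pooled, digested with collagenase, depleted of dead cells and run as 1 droplet library in which only transcript 3′ ends are read. The Pdx1-Cre;Scap f/f library was not analysed here.

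Pancreatic amylase cuts starch into short sugars inside the gut. Carboxypeptidase A1, from Cpa1, removes aromatic and aliphatic residues from the C-terminal end of peptides, and carboxypeptidase B1, from Cpb1, removes the basic residues lysine and arginine; acinar cells store both as inactive zymogens that trypsin activates. In rodents, pancreatic amylase is known to be low in suckling pups and to rise when they begin to eat starch, whereas the proteases are made from before birth. Amy1 is the salivary and liver amylase, and the Amy2 genes are the pancreatic ones. No later age was analysed here, so no change at weaning could be measured.

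Barcodes with over 800 and under 100000 unique molecular identifiers (UMIs, counted molecules) and under 15% mitochondrial UMIs were kept, 10947 of 11789, and they held 49202966 UMIs. Acinar barcodes were taken as the 1348 in which 8 digestive enzyme genes together made up at least 10% of the UMIs. Cpa1 and Cpb1 are among these 8 genes and the amylases are not, so the levels of Cpa1 and Cpb1 in the gate are partly set by the rule. The acinar transcription factor Ptf1a stood at 57.5 counts per 1000000 UMIs (CPM) in the gate and at 0.532 CPM in the 1745 barcodes with a UMI of Ptprc, the pan-leukocyte gene. Near the threshold, the 63 barcodes with an enzyme share of 10 to 12% held Cpa1 at 6459 CPM and amylase at 169.1 CPM, and the 59 barcodes at 8 to 10% held them at 5344 and 60.9 CPM. With 1 library no difference could be tested between animals, and every interval given is a 95% interval for counting error only.

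The amylase genes lie in a row on the minus strand of chromosome 3, and their sequences set what a count of each can mean. On GRCm38, Amy2a5 lies at chr3:113247178-113258837, Amy2a4 at chr3:113279843-113291449, Amy2a3 at chr3:113312455-113324052, Amy2a2 at chr3:113345055-113356658, Amy2a1 at chr3:113529403-113532428 and Amy1 at chr3:113555710-113606699. Amy2b lies at chr3:113147656-113156727 and is an unprocessed pseudogene in GENCODE M21 but protein coding in RefSeq. Cpb1 is on the same chromosome at chr3:20248264-20275733, minus strand, and Cpa1 is at chr6:30639218-30645363, plus strand. The last 91 coding bases up to the stop codon are shown for Amy1 and for 2 of the pancreatic genes, with capitals marking each base that differs from Amy2a5.
Amy2a5: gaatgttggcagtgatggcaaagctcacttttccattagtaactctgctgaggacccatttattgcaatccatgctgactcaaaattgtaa
Amy2a4: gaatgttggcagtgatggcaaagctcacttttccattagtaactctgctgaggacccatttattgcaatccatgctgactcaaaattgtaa
Amy1: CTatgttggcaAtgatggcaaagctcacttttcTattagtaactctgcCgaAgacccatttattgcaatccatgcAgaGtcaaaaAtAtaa
Amy2a4 had 0 differences from Amy2a5 over these 91 bases, Amy2a2 and Amy2a3 also had 0, and Amy1 had 10.

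Sequence near the stop codon did not tell the Amy2a genes apart. In the 500 bases that end at the stop codon, 0 of 410 windows of 91 bases in Amy2a5 were absent from every other annotated transcript, and the same held for Amy2a2, Amy2a3 and Amy2a4. Windows of 50 and 150 bases gave 0 as well for these 4 genes. The annotated Amy2a5 transcript continues for 2033 bases past its stop codon, and in the last 500 of these all 410 windows were particular to it. The annotated transcripts of Amy2a2, Amy2a3 and Amy2a4, 3717 bases each, had no window of their own at any position, and that of Amy2a1, 890 bases with no annotated stop codon, had 43 of 800. For Amy1, Cpa1 and Cpb1 all 410 windows were their own in both stretches. Cell Ranger discards reads that match several genes equally well, so the Amy2a counts leave out shared reads and the Cpa1 and Cpb1 counts do not. How many amylase reads were left out was not tested. The order of the Amy2a genes by count is uncertain for the same reason.

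**Figure D1:**
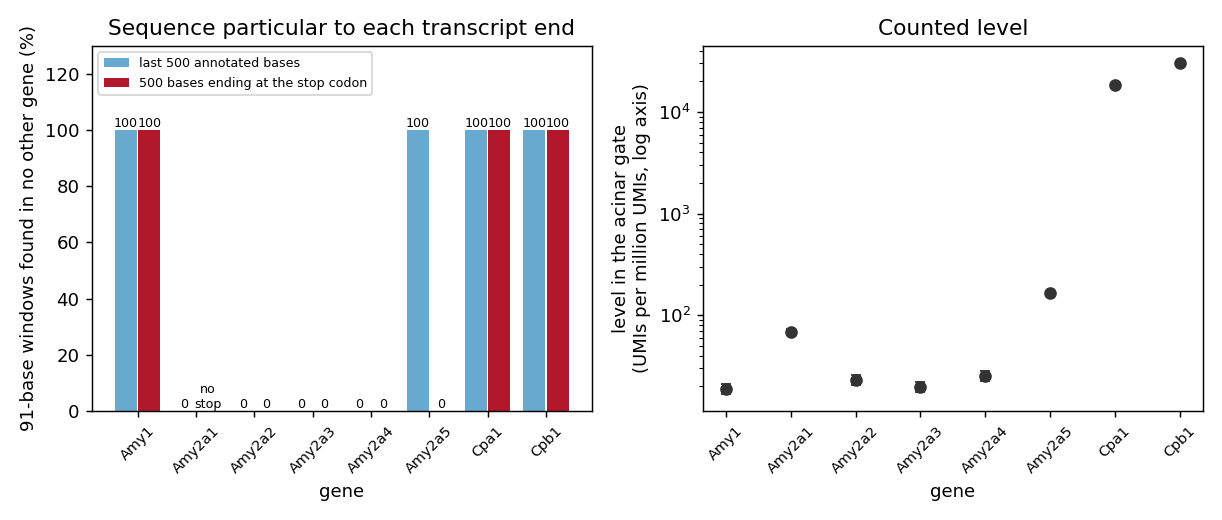
The left panel gives for each listed gene the percentage of 91-base windows found in no other annotated transcript, in the last 500 annotated bases (blue) and in the 500 bases ending at the stop codon (red, none annotated for Amy2a1). The right panel gives the level of each gene in the 1348 acinar barcodes in CPM on a log axis with 95% counting intervals. Amy2a5, at 165 CPM, is the Amy2a gene whose annotated end is its own, but its stretch before the stop codon is not.

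Promoter windows of 300 bases around the RefSeq start (GRCm38.p6) were read for all 9 genes and are shown for the amylase gene with the highest count and for both carboxypeptidases. Capitals mark the letters TTTCCC on either strand, known as part of the composite site of the acinar factor complex PTF1. They mark CACCTG on either strand as well, an E-box of the kind that the same complex binds. They also mark the TATA box letters TATAAA on the strand given. The annotated start is base 251 of each window.
Amy2a5: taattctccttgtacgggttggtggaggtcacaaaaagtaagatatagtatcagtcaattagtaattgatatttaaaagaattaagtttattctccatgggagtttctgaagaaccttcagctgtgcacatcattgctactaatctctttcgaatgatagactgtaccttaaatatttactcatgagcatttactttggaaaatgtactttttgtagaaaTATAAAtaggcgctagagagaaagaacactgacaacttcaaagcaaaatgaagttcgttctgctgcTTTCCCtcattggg
Cpa1: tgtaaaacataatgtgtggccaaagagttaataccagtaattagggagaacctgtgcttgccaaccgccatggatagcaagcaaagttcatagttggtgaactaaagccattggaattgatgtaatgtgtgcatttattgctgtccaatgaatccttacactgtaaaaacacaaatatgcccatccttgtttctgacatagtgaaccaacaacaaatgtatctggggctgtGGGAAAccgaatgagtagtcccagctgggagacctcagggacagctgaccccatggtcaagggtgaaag
Cpb1: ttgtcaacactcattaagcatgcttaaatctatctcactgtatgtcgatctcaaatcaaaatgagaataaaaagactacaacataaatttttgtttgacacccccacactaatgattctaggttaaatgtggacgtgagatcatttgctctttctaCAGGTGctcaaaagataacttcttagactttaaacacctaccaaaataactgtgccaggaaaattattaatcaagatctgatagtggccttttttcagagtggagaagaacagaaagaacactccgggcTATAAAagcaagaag
These windows are chr3:113258650-113258949, chr6:30638968-30639267 and chr3:20275684-20275983. Amy2a5 held TATAAA at base 221, ahead of the start, and TTTCCC at base 287, past the start and past the ATG at base 268, so that match lies within the transcript. Cpa1 held TTTCCC once on the reverse strand, at base 232. Cpb1 held CACCTG on the reverse strand at base 157, and TATAAA at base 286, past the annotated start. E-boxes of any form, CANNTG, are not marked, and the 3 windows held 1, 3 and 2 of them. Of all windows, 72.31% held at least 1. Of 32851 promoter windows of this length, 25.25% held TTTCCC on either strand, 20.21% CACCTG on either strand and 8.319% TATAAA on the strand given. The windows of Amy2a2, Amy2a3 and Amy2a4 were identical over 300 bases. Bases 1 to 162 of the Amy2a5 window were the same as bases 139 to 300 of the Amy2a4 window, so the annotated starts differ by 138 bases and the sequence that both windows cover does not differ.

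Carboxypeptidase transcripts were abundant in acinar barcodes, and counted amylase transcripts, which leave out reads shared between Amy2a genes, were scarce. Cpb1 stood at 30545 CPM (30455 to 30634), from 447552 UMIs, and Cpa1 at 18476 CPM (18407 to 18546), from 270718 UMIs. The 6 listed amylase genes together stood at 320.8 CPM (311.7 to 330.1), from 4701 UMIs. This is 17.36 amylase UMIs per 1000 Cpa1 UMIs (16.87 to 17.87). For comparison Ctrb1, the chymotrypsinogen gene and the highest of the 8 gate enzymes, stood at 84535 CPM. Counts from transcript 3′ ends are not expected to scale with transcript length. Intronic reads are by default counted as well, and their part in these levels was not tested. With the gate set on the 6 enzymes that are not members, Cpa1 stood at 18800 CPM, Cpb1 at 31062 CPM and amylase at 324.3 CPM over 1281 barcodes.

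Among the amylases, Amy2a5 had 2417 UMIs in the gate (165 CPM, 158.4 to 171.7), which was 51.41% of all amylase UMIs. Amy2a1 had 1010 UMIs (68.9 CPM, 64.7 to 73.3). Amy2a4 had 371 UMIs (25.3 CPM, 22.8 to 28.0), Amy2a2 337 (23.0 CPM, 20.6 to 25.6) and Amy2a3 290 (19.8 CPM, 17.6 to 22.2). Amy1, the salivary and liver gene, had 276 UMIs (18.8 CPM, 16.7 to 21.2). Neighbours in this order from Amy2a4 down to Amy1 had overlapping counting intervals, and Amy2a5 and Amy2a1 stood above them. For Amy2a2, Amy2a3 and Amy2a4, 0 of 3627 windows of 91 bases in the annotated transcript were their own. Their counts are therefore no measure of the annotated transcripts of these genes, and the intervals do not cover this. Where their counted reads came from was not tested.

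Cpa1 and Cpb1 were found in every acinar barcode, and amylase was not. Both are genes of the gate, so this is partly set by the rule. With the gate on the 6 other enzymes, both were in 100% of 1281 barcodes and amylase was in 63.47%. The share of Cpa1 per barcode ran from 0.156% of UMIs to 4.38%, with a median of 1.776%, and that of Cpb1 from 0.265% to 7.467%, with a median of 2.962%. Amylase had a UMI in 831 of 1348 acinar barcodes (61.65%), and in the 384 barcodes with 10000 or more UMIs it had one in 374 (97.4%), with a median of 8 and at most 45 UMIs. With every barcode thinned to 800 UMIs, amylase had a UMI in 17.28% of acinar barcodes (15.3 to 19.4) and in 0.516% of Ptprc barcodes (0.236 to 0.977), whose median depths before thinning were 4410 and 2094 UMIs. Thinned in the same way, Cpa1 had a UMI in 100% of acinar barcodes and in 34.27% of Ptprc barcodes. Across the 384 deep barcodes the ratio of Cpb1 to Cpa1 had a median of 1.64, with 1.213 at the 5th percentile and 2.485 at the 95th.

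**Figure D2:**
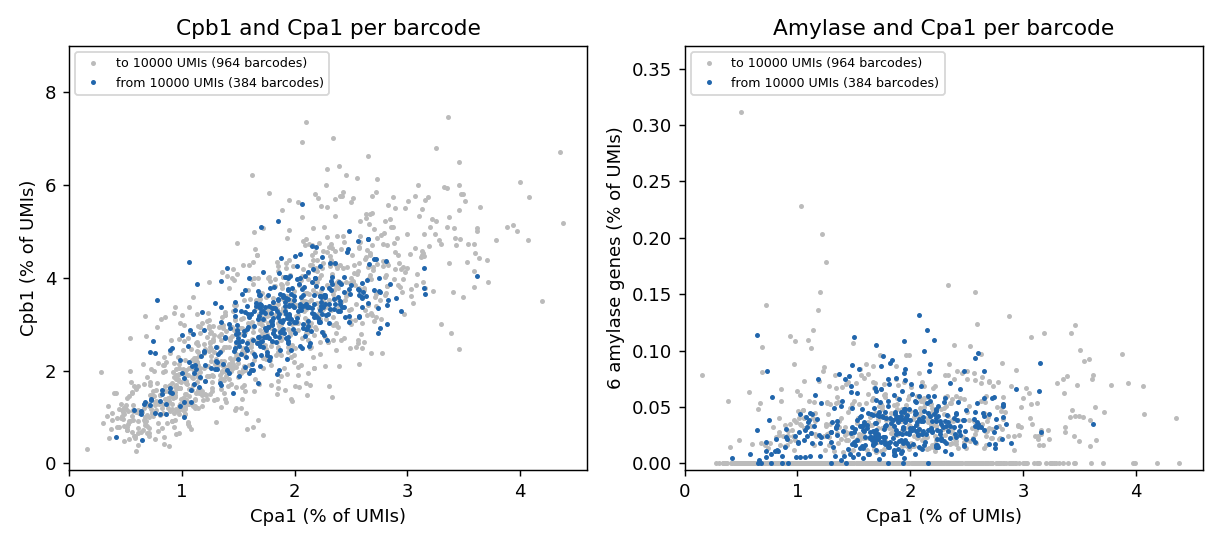
Each point is an acinar barcode, with Cpa1 as a percentage of its UMIs on the horizontal axis and Cpb1 (left) or the 6 amylase genes (right) on the vertical axis. Grey points are the 964 barcodes with up to 10000 UMIs and blue points the 384 above. Cpb1 follows Cpa1 across the range, and amylase stays at or under 0.311% with many barcodes at 0.

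The summed counted amylase level was higher in the deeper acinar barcodes and the carboxypeptidase levels were close to even. Of 12903 genes with enough counts, 9.28% were 2-fold or more higher in the 384 barcodes with 10000 or more UMIs than in the 964 with fewer, and 8.78% were 2-fold or more lower. None of the 8 listed members passed this 2-fold limit in either direction, although Amy2a1 did with the gate at 30% enzymes (2.467) or the split at 5000 UMIs (2.469). Summed amylase stood at 249.7 CPM in the shallower barcodes and at 344.7 CPM in the deeper ones, a ratio of 1.38 (1.284 to 1.485). Cpa1 stood at 17944 and 18655 CPM (ratio 1.04, 1.031 to 1.049) and Cpb1 at 30105 and 30692 CPM (1.02, 1.013 to 1.026). The median ratio of all genes was 1.15. Summed amylase, Amy1, Amy2a1 and Amy2a5 lay above it, and Amy2a2, Amy2a3, Amy2a4 and both carboxypeptidases below it. The share of genes with a lower ratio was 87.31% for Amy2a1, 70.84% for Amy1 and 67.16% for Amy2a5. It was 43.82% for Amy2a2, 36.65% for Amy2a3 and 47.87% for Amy2a4, beside 40.65% for Cpa1 and 39.05% for Cpb1.

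The counts assigned to each amylase gene did not shift equally with depth. Reads shared between Amy2a genes are left out of these counts, and whether the part left out varied with depth was not tested. Amy2a1 stood at 42.3 CPM in the shallower and 77.9 CPM in the deeper barcodes (ratio 1.839, 1.549 to 2.195), and Amy2a5 at 128.7 and 177.1 CPM (1.377, 1.245 to 1.525). Amy2a2, Amy2a3 and Amy2a4 had ratios of 1.079, 0.9985 and 1.13, each with an interval that holds 1. Amy1 had a ratio of 1.447 (1.066 to 1.996), but its interval held 1 at 20% enzymes (0.9451 to 1.818), at 30% (0.7959 to 1.699) and without barcodes that held a Ptprc UMI or 1% collagen (0.9031 to 1.853). That of Amy2a5 held 1 when the barcodes were split at 20000 UMIs (1.062, 0.9788 to 1.154). In 4 narrower depth ranges, from 800, 3000, 10000 and 30000 UMIs upwards, summed amylase stood at 178.8, 272.1, 370.4 and 326.7 CPM. The level was thus highest at 10000 to 30000 UMIs and did not rise further in the deepest range.

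Transcripts of other cell types were also less abundant in the deeper barcodes. Ptprc stood at 72.8 CPM in the shallower and 17.7 CPM in the deeper acinar barcodes, and the fibroblast collagen Col1a1 at 1684 and 612.3 CPM. With every acinar barcode left out that held a Ptprc UMI or 1% collagen, the amylase ratio was 1.187 (1.095 to 1.287) and the ratio of Cpa1 and Cpb1 together was 0.9007 (0.8952 to 0.9061), so the carboxypeptidases then lay below 1. With the gate at 20% enzymes these values were 1.291 and 0.9588.

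**Figure D3:**
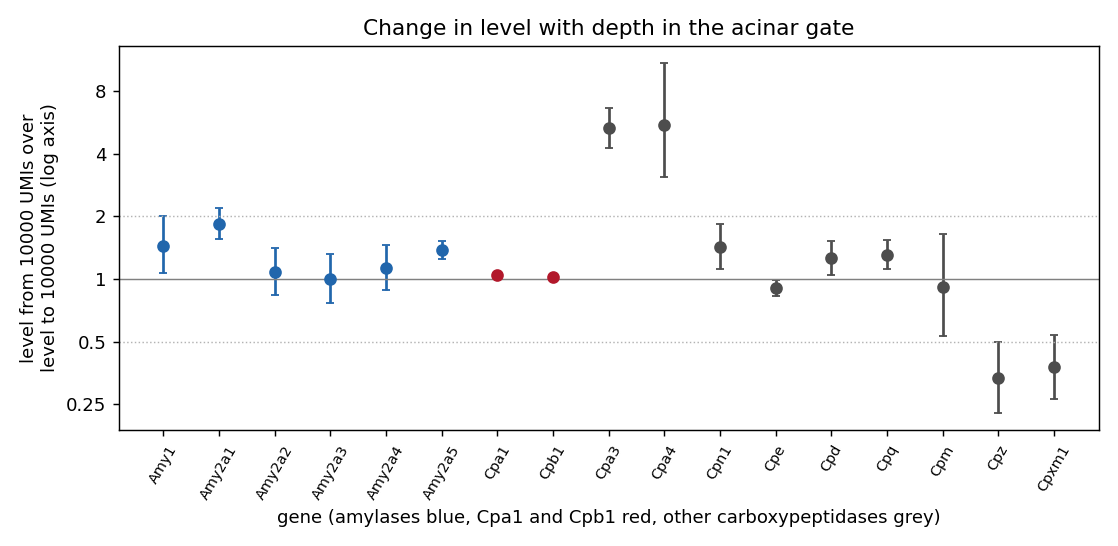
Points give the level of each gene in acinar barcodes with 10000 or more UMIs over its level in those with fewer, on a log axis, with 95% counting intervals and dotted lines at 0.5 and 2. The amylases (blue) run from 0.9985 to 1.839, Cpa1 and Cpb1 (red) lie at 1.04 and 1.02, and Cpa3 and Cpa4 lie above 5.

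Acinar barcodes differed in Malat1, a long noncoding RNA that stays in the nucleus, and the balance of amylase to Cpa1 moved with it. Each depth range was split at its median Malat1 share, a split chosen after the data were seen. Among barcodes with fewer than 10000 UMIs, Cpa1 stood at 21675 CPM where Malat1 was low and at 14538 CPM where it was high, while amylase stood at 259.3 and 240.9 CPM with overlapping intervals. Amylase per 1000 Cpa1 UMIs was therefore 11.97 and 16.57, and the ratio of these was 1.385 (1.216 to 1.578). Among the deeper barcodes the values were 16.18 and 21.6 (ratio 1.335, 1.252 to 1.424). Cpb1 was lower where Cpa1 was, with 1672 and 1686 Cpb1 UMIs per 1000 Cpa1 UMIs in the shallower barcodes. Markers of other cells moved with Malat1 too, Ptprc from 17.06 to 123.6 CPM and Col1a1 from 1289 to 2045 CPM in the shallower barcodes, and Ptprc from 12.97 to 22.8 CPM and Col1a1 from 549.4 to 680.5 CPM in the deeper ones. Their part in the ratio was not tested.

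Cpa1, Cpb1 and all 6 listed amylases had UMIs in Ptprc barcodes, at far lower levels than in the gate. Leukocytes are not known to make pancreatic zymogens, so the level in Ptprc barcodes was taken as the background of free RNA in the droplets. There Cpa1 stood at 504.3 CPM (486 to 523.2) and Cpb1 at 648.3 CPM (627.5 to 669.7), and all 1745 barcodes held at least 1 UMI of the 8 enzymes. The 6 amylases had 42 UMIs in all, or 7.448 CPM (5.368 to 10.07). Amy1 had 24 of these and was only 4.426-fold higher in the gate, beside 33.4-fold to 69.28-fold for the gate enzymes. Whether the Amy1 UMIs in Ptprc barcodes were free acinar RNA was not tested. Of 14529 genes, 9.16% were 2-fold or more higher in the acinar gate than in Ptprc barcodes and 48% were 2-fold or more lower. Nothing is read from the members' own place among them, because the gate chose Cpa1 and Cpb1, and the Amy2a genes, with 1 to 10 UMIs each in Ptprc barcodes, had enough counts for the comparison only through the gate. Cpa1 was 36.64-fold higher in the gate (35.31 to 38.03), Cpb1 47.11-fold (45.6 to 48.69) and Amy2a5 93.02-fold (50.49 to 194.2, on 10 UMIs in Ptprc barcodes).

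Amy1 departed from the other amylases outside the acinar gate. It stood at 18.84 CPM in the gate, 4.256 CPM in Ptprc barcodes, 4.023 CPM in the 6226 collagen barcodes, 2.934 CPM in the 373 endothelial barcodes and 4.803 CPM in the 547 globin barcodes. The gate was thus 4.426-fold above the Ptprc barcodes for Amy1 (2.913 to 7.027), and the intervals of the other groups overlapped. The globin barcodes had no enzyme limit and overlap with the gate, so their value is not one of free RNA alone. Amy1 made up 24 of 42 amylase UMIs in Ptprc barcodes (57.14%, 40.96 to 72.28) and 91 of 187 in collagen barcodes (48.66%, 41.3 to 56.07), against 5.871% in the gate (5.216 to 6.582). Of all Amy1 UMIs in kept barcodes, 64.34% fell in the gate, and for the Amy2a genes this share ran from 92.66% for Amy2a1 to 98.15% for Amy2a4.

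**Figure D4:**
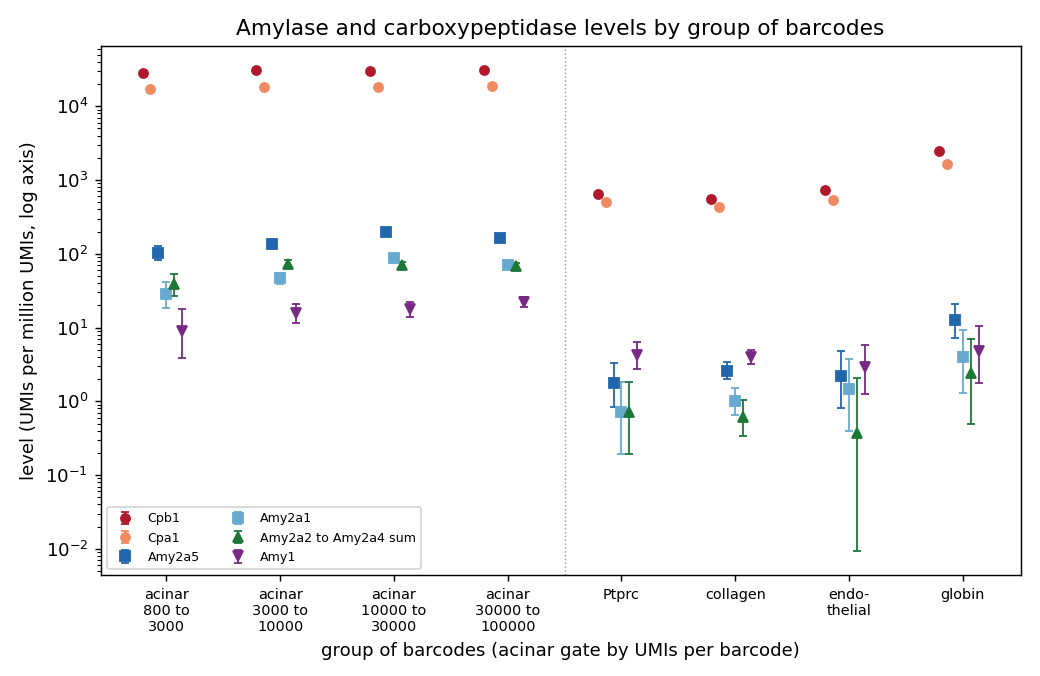
Levels in CPM (log axis) with 95% counting intervals are shown for acinar barcodes in 4 depth ranges and, right of the dotted line, for Ptprc, collagen, endothelial and globin barcodes. Globin barcodes had no enzyme limit and overlap with the gate. Cpa1, Cpb1 and the Amy2a genes lie far lower right of the line, and Amy1 (purple) is the amylase with the smallest gap, 18.84 in the whole gate against 4.256 in Ptprc barcodes.

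The members were also compared as ratios to Cpa1 within each group of barcodes. A quotient of such ratios depends on the denominator, and no other was used for amylase. Among the gate enzymes, the fold of the gate over Ptprc barcodes ran from 33.4 for Clps to 69.28 for Cela3b. Cpa1, at 36.64, lay near the low end. With all 6 amylases, the ratio of amylase to Cpa1 was 17.36 per 1000 in the gate and 14.77 (10.62 to 20.01) in Ptprc barcodes, and the quotient of 1.176 had an interval that holds 1 (0.8659 to 1.597). With Amy1 left out, a choice made after its spread was seen, the 5 Amy2a genes gave 16.35 per 1000 in the gate (15.86 to 16.84) and 6.329 in Ptprc barcodes (3.746 to 10.02), a quotient of 2.583 (1.623 to 4.109). Collagen barcodes held 9.831 Amy2a UMIs per 1000 Cpa1 (7.955 to 12.02). Acinar barcodes of 800 to 3000 UMIs held 9.88 (8.356 to 11.6), close to the collagen value, and those of 10000 to 30000 UMIs held 19.25 (18.31 to 20.23).

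For Cpb1 there were 1.653 Cpb1 UMIs per Cpa1 UMI in the gate (1.645 to 1.661) and 1.286 in Ptprc barcodes (1.224 to 1.351), and collagen barcodes held 1.265 (1.232 to 1.299). All 4 depth ranges of the gate lay between 1.623 and 1.694. Among the groups set by other markers, only 2 lay above them. These were the 9 hormone barcodes, at 1.961 (1.481 to 2.615), and the 4 mast cell barcodes, with 1 Cpa1 UMI and 5 Cpb1 UMIs (0.5595 to 236.5). Both intervals hold the values of all 4 depth ranges. Globin barcodes, at 1.528 (1.444 to 1.616), were the nearest of the larger groups below. They had no enzyme limit and overlap with the gate, including an acinar barcode with 374 Cpa1 and 457 Cpb1 UMIs. The folds of Cpa1 and Cpb1 over Ptprc barcodes, 36.64 and 47.11, both lay within the range of the gate enzymes, 33.4 to 69.28.

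**Figure D5:**
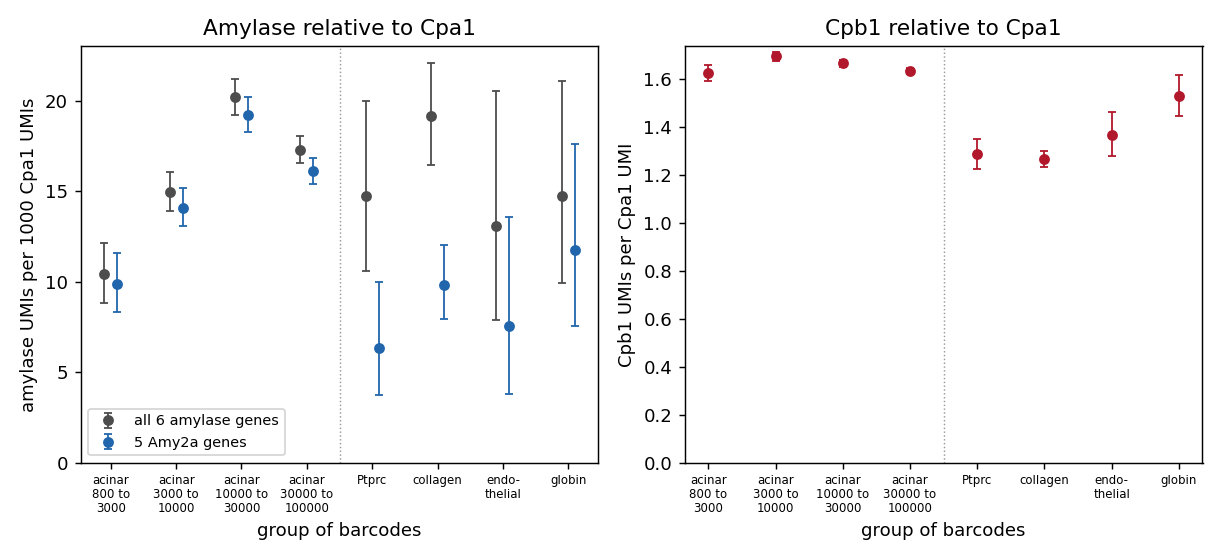
The left panel gives amylase UMIs per 1000 Cpa1 UMIs for all 6 genes (grey) and for the 5 Amy2a genes (blue), and the right panel Cpb1 UMIs per Cpa1 UMI, for the same groups of barcodes with 95% counting intervals. Grey and blue points nearly coincide in the acinar gate and separate right of the dotted line, where Amy1 is a larger part of the amylase count. Globin barcodes had no enzyme limit and overlap with the gate.

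The genes most like each member were sought over the 384 deep acinar barcodes, by Spearman correlation of shares of UMIs over 7766 genes. All points come from 1 library and are shares of the same totals, so the values are descriptions. Of the genes named here, Cpa1, Cpb1, Pnliprp1, Clps, Reg1 and Cela2a are among the 8 whose summed share chose these barcodes. The part of that rule in their rho was not tested. Cpa1 was most like Pnliprp1, a lipase-related zymogen granule gene (rho 0.6976), then Cpb1 (0.6681), the elastase gene Cela1 (0.6353), the colipase gene Clps (0.5732) and the carboxyl ester lipase gene Cel (0.5682). Cpb1 was most like Pnliprp1 (0.672), Cpa1 (0.6681), Pnliprp2 (0.5727), the ribonuclease gene Rnase1 (0.5687) and 2210010C04Rik (0.5598). Summed amylase had lower values, led by Cela1 (0.3831), Serpini2 (0.3232), Reg1 (0.31), Zg16 (0.2852) and Cela2a (0.2746), with Cpa1 at 0.2507 and Cpb1 at 0.1897. Its median of 8 UMIs per barcode limits any correlation of the amylase sum.

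Other carboxypeptidases were taken from a list of 17 genes, of which the table listed 16. In the depth comparison, 2 of the 12 with enough counts were 2-fold or more higher in the deeper acinar barcodes and 2 were 2-fold or more lower, beside 9.28% and 8.78% of all genes, with a median ratio of 1.03 beside 1.15 for all genes. At 12 genes these counts are near the share over all genes. The 2 lower genes were Cpz (0.3359) and Cpxm1 (0.3779), of which 4.396% and 3.81% of kept UMIs lay in the gate. Cpe, the prohormone-processing carboxypeptidase of endocrine cells, stood at 173.1 CPM in the gate and at 960.3 CPM in the 9 hormone barcodes. Cpd stood at 47.7 CPM in the gate and at 119.8 CPM in collagen barcodes, and Cpq at 65.0 and 184 CPM. Cpn1, the plasma carboxypeptidase N subunit known from liver, stood at 29.6 CPM in the gate and 1.773 CPM in Ptprc barcodes.

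The 2 higher genes were Cpa3 and Cpa4. Cpa3, the carboxypeptidase of mast cell granules, stood at 23.6 CPM in the shallower and 125 CPM in the deeper acinar barcodes (ratio 5.293, 4.26 to 6.652), and it had a UMI in 175 of 384 deep barcodes. The mast cell protease genes Cma1 and Mcpt4 had 4 and 2 UMIs in all 1348 acinar barcodes, and Tpsb2 and Tpsab1 had 0. Kit, a receptor gene that mast cells also express, had 398 UMIs in 247 acinar barcodes, and in the deep barcodes it stood at 30 CPM beside 17.91 CPM in Ptprc barcodes. What part mast cells had in the Cpa3 count was not tested. In the 4 mast cell barcodes Cpa3 had 85 UMIs and Cma1 186. Of the 1631 Cpa3 UMIs in kept barcodes, 89.39% lay in the acinar gate. Cpa3 lies at chr3:20215620-20242181, 6082 bases downstream of Cpb1 on the same strand with no annotated gene between. Per 1000 Cpb1 UMIs there were 0.7844 Cpa3 UMIs in the shallower and 4.073 in the deeper acinar barcodes, and over the deep barcodes the shares of Cpa3 and Cpb1 had a rho of 0.0333. Cpa4 stood at 3.257 and 17.96 CPM (ratio 5.514, 3.086 to 10.85), on 12 and 197 UMIs. Whether reads from Cpb1 that run past its end contributed to the Cpa3 count was not tested.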

How the data were processed

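Barcodes, gene names and a matrix of UMI counts of 1 droplet library (10x 3′ v3.1) were used. The counts were deposited by the authors as raw whole-number counts per gene and barcode, made per the labels with Cell Ranger 7.1.0 on mm10. The authors' limits were 800 to 10000 UMIs and under 15% mitochondrial UMIs; the upper limit was raised here to 100000 so that deep acinar barcodes could be compared. By default, this version also counts intronic reads. Levels are summed UMIs per 1000000 UMIs of a group (CPM), with exact Poisson, Clopper-Pearson (shares) or conditional binomial (ratios) intervals, and log-scale intervals for quotients of ratios. UMIs share 1 amplification, so intervals cover counting error only. With 1 library no test was made.

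Leukocytes were barcodes with a Ptprc UMI and under 10% enzymes. Collagen, endothelial, mast cell and hormone barcodes were set by markers and also had under 10% enzymes. Globin barcodes were set by markers with no enzyme limit, so they overlap with the gate. No doublet caller was run, and barcodes with Ptprc or collagen were left out as an alternative. Genes in the 2-fold comparisons had at least 20 UMIs. Members, lists and gates were chosen with earlier results of these data known. Named were all members, list genes at 10 CPM or more in a group (1 of them is not reported here), and the 5 genes most like each member. Transcripts were GENCODE M21 and promoters RefSeq, and 9 of 9 members matched in both. Python 3.11.15, numpy 2.4.6, scipy 1.17.1 and pandas 2.3.3 were used, and interval code was tested on simulated data. Alternatives for the gate, limits, denominator, depth split and Ptprc barcodes were run.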

Additional observations from a re-analysis of the deposited data

How the results depend on the processing

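The summed amylase level in the gate, 320.8 CPM, became 340.7 with the gate at 20% enzymes, 358.4 at 30%, 249.7 with the authors' upper limit of 10000 UMIs, 332.1 without doublet-like barcodes and 473.8 with the 8 enzymes left out of the total. Cpa1 and Cpb1 together, 49021 CPM, became under the same settings 52196, 56240, 48049, 50286 and 72396, and further 49862 on the gate of 6 enzymes, 49297 at 5% mitochondrial UMIs and 47868 with the Ptprc level subtracted. The depth ratio of amylase, 1.38, became 1.187 without doublet-like barcodes, 1.623 with the split at 5000 UMIs and 1.101 at 20000, and it stayed above 1 in all 9 alternatives run. Amy2a1, 1.839, passed 2-fold at 30% enzymes (2.467) and with the split at 5000 (2.469).

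The depth ratio of Cpa1 and Cpb1 together, 1.027, turned below 1 at 20% enzymes (0.9588), at 30% (0.9267) and without doublet-like barcodes (0.9007). It became 1.011 on 6 enzymes, 1.019 at 1500 UMIs, at 5% mitochondrial UMIs and with the split at 20000, 1.006 with the enzymes left out of the total and 1.014 with the split at 5000. Under the first 3 of these settings Cpa1 alone gave 0.9751, 0.9427 and 0.9211 and Cpb1 alone 0.9491, 0.9171 and 0.8886, and Cpb1 gave 0.9983 with the enzymes left out. The cause was not tested.

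In Ptprc barcodes Cpa1 and Cpb1 together, 1153 CPM, became 1023 with at least 2 Ptprc UMIs and 936.3 under 2% enzymes, and the quotient of Cpb1 to Cpa1, 1.286, became 1.364 under 2% enzymes. The quotient for the Amy2a genes ran from 1.92 to 2.97 over its 10 alternatives, all with Cpa1 as the denominator. No paired analysis was possible because there is 1 library. Counts of 1 to 24 UMIs per amylase gene in Ptprc barcodes limit all statements on their background.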

Other observations

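Genes of starch and sugar digestion other than the amylases were rare in the acinar gate. Of a list of 13 genes, 11 were listed in the table, and besides the 6 amylases only Mgam and Gaa reached 10 CPM in any group of barcodes. Gaa, the lysosomal acid glucosidase gene, stood at 12.15 CPM in the gate and 72.67 CPM in collagen barcodes. Mgam, the maltase-glucoamylase gene, stood at 3.208 CPM in the gate, on 47 UMIs. Sis, the sucrase-isomaltase gene of the intestine, had 0 UMIs in the gate, and Lct, the lactase gene of suckling animals, had 14.

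A list of 9 acinar regulators held transcription factor genes and the receptor genes Insr and Cckar. Of these 9, 2 were 2-fold or more higher in the deeper acinar barcodes and 0 lower, beside 9.28% and 8.78% of all genes. Their median ratio was 1.476, beside 1.15 for all genes. The 2 higher genes were Nr5a2 (ratio 2.515) and Gata4 (2.258). Ptf1a and Rbpjl, subunits of the PTF1 complex, stood at 57.5 and 206.9 CPM in the gate. Over the 384 deep barcodes the share of Ptf1a had a rho of 0.0365 with amylase, 0.1068 with Cpa1 and 0.1835 with Cpb1.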
